A study of Mus musculus with 8 samples.

Results

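Dioxygenases that use 2-oxoglutarate were examined in mouse tibialis anterior, a fast muscle of the lower leg, after loss of Sdhc, a membrane anchor subunit of succinate dehydrogenase. The set was a list of 45 enzymes named by symbol: JmjC demethylases and hydroxylases, TET enzymes, the AlkB family, collagen prolyl and lysyl hydroxylases, enzymes of carnitine synthesis and related proteins. Of these, 44 had a row in the table of 23930 genes (Tmlhe is not analysed here), and 38 reached at least 1 RPM (reads per 1000000 reads of the library) in at least 4 of the 8 libraries and were tested. The KO group was 4 libraries with the labels' Inducible HSA-Cre/Lox-SDHC genotype, and the WT group was 4 libraries from littermates with HSA-Cre and no floxed allele. HSA-Cre is a tamoxifen-inducible recombinase that acts in skeletal muscle fibres, so the vessels, fibroblasts and other cells of the sample are not its target. All animals, the controls too, received tamoxifen at the age of 12 weeks, and tissue was collected after another 20 weeks. The strain is written C57BL/6 for the WT libraries, C57BL/7 for KO 1 and C57BL/8 for KO 2 to KO 4, whereas the growth description gives C57/B6 for all of them. Total RNA was read by sequencing 1 short amplified segment per gene (Ion AmpliSeq Transcriptome Mouse).

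Each of these enzymes uses iron, molecular oxygen and 2-oxoglutarate to hydroxylate or demethylate its substrate, and releases succinate and carbon dioxide. Succinate dehydrogenase consumes succinate in the citric acid cycle. When it is lost, succinate can build up and compete with 2-oxoglutarate at the active site, as known from tumours that lack the enzyme. The substrates range from methylated histones, DNA and RNA to collagen, and the prolyl hydroxylases that mark hypoxia-inducible factor (HIF) for degradation belong to the same superfamily. Some members of the list, among them P4ha1, P4ha2, Plod1, Plod2, Kdm3a, Kdm4b and Kdm4c, are known to be induced by hypoxia through HIF. The values here are transcript levels; succinate and enzyme activity are not analysed here.

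The libraries held 4774602 to 7281574 reads, so that 3 reads, taken as the floor of detection, were worth 0.412 to 0.628 RPM. Sdhc averaged 696 ± 91.8 RPM over the WT libraries and 26 ± 16 RPM over the KO libraries (mean ± SD, n = 4 each), 3.73% of the WT mean (two-sided exact permutation p = 0.0286, the lowest value possible with 4 libraries against 4). All 7 muscle fibre markers were read in every library, with a summed level of 106100 to 154800 RPM in WT and 82470 to 130000 RPM in KO. WT 1 and KO 4 stood apart from the other libraries: Xist, which is made from the inactive X chromosome, was at 77.3 and 98.9 RPM there and at most 0.334 RPM in the other 6. The median gene lay 0.13 higher in KO on the log2(RPM + 1) scale, and each log2 fold change in the text has this shift subtracted (relative log2 fold change). Standard errors and limma p-values belong to the unshifted difference, so they do not test whether a gene departs from the median gene. Because 1 RPM was added before taking logs, changes of genes with few reads appear smaller than they are.

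P4ha1, the catalytic subunit of collagen prolyl 4-hydroxylase, was the only member of the 38 tested to pass the test across all genes (limma, adjusted p under 0.05), where 0.523% of all 11087 genes tested were called higher in KO and 0.28% lower. Kdm3a, a histone demethylase, and Plod1, a collagen lysyl hydroxylase, had the next smallest p-values. In 4 members, P4ha1, Kdm3a, Plod1 and Jmjd6, all KO libraries lay above all WT libraries, as in 7.5% of all genes. The 250 bases before the annotated start of P4ha1, Kdm3a and Plod1, the members with the largest positive fold changes, are shown. They belong to the hypoxia-induced subset, which was drawn up with earlier results of these data known, so this choice of genes is no evidence for a cause. P4ha2 is shown as a related gene whose level did not pass. The sequences come from RefSeq on GRCm38.p6 and run 5′ to 3′ along the gene. Capitals mark each ACGTG or GCGTG on either strand, the core letters to which HIF is known to bind.
P4ha1: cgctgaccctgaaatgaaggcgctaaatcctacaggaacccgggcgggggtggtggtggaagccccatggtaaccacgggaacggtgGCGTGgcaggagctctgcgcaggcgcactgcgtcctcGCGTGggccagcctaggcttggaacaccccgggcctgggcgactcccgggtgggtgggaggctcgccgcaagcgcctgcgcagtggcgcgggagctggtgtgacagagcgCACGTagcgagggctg
P4ha2: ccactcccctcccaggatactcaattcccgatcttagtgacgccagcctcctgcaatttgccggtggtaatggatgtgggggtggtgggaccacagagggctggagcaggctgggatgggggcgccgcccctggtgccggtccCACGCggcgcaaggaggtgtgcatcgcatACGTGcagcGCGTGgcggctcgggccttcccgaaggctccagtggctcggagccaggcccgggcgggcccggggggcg
Kdm3a: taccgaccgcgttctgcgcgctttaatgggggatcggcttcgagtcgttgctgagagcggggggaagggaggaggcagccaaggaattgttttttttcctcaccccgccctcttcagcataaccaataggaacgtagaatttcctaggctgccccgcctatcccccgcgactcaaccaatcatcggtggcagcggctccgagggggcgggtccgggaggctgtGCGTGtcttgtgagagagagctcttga
Plod1: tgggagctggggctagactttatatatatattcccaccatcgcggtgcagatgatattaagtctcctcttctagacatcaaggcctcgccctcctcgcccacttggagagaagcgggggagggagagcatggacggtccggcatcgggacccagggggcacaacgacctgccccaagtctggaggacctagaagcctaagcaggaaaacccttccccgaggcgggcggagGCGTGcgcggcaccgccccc
The windows are chr10:59323046-59323295 on the plus strand for P4ha1, chr11:54100674-54100923 on the plus strand for P4ha2, chr6:71632918-71633167 on the minus strand for Kdm3a (the first of 3 starts listed for this gene) and chr4:147936777-147937026 on the minus strand for Plod1. The P4ha1 and P4ha2 windows each held 3 matches, 1 ACGTG and 2 GCGTG, while the Kdm3a and Plod1 windows each held 1 GCGTG. The P4ha2 window lies inside the gene as GENCODE M21 gives it (from 54100095 to 54131665), and the Kdm3a window partly so (gene end 71632990), since RefSeq and GENCODE place these starts differently. None of the matches was part of a palindromic CACGTG. At least 1 match was present in 38.6% of all 32851 windows of this length, and 3 or more in 6.58%. Of 45 windows of 36 members in the table, 23 held a match (51.1%) and 6 held 3 or more (13.3%). These are counts of letters in a window and do not show that a factor binds there.

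P4ha1 was at 36.1, 28.7, 25.8 and 31.4 RPM in WT 1 to WT 4 and at 47.6, 57.8, 85.5 and 54.9 RPM in KO 1 to KO 4. All 4 KO libraries lay above all 4 WT libraries, and KO 3 was the highest. The mean rose from 30.5 ± 4.38 to 61.5 ± 16.6 RPM, 202% of the WT level (relative log2 fold change 0.84, SE 0.17; adjusted p = 0.0165 in limma, n = 4 each). With edgeR on whole reads the adjusted p was 0.0143, from 172 to 479 reads per library. The call was lost without WT 2 (limma adjusted p = 0.0597) and without WT 3 (0.0864), where the relative log2 fold change was 0.81 and 0.79. The gene (ENSMUSG00000019916.14) spans chromosome 10 from 59323296 to 59373304 on the plus strand of GRCm38 and overlaps no other annotated gene.

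P4ha2 encodes the alternative catalytic subunit of the same enzyme. It was at 37.4, 38.1, 32.4 and 34.5 RPM in WT 1 to WT 4 and at 31.9, 36.4, 41.4 and 37.6 RPM in KO 1 to KO 4. The groups overlapped, and the relative log2 fold change was -0.08 (95% interval -0.37 to 0.21, limma adjusted p = 0.9, n = 4 each). P4ha1 was also set against P4ha2 within each library. The log2 ratio of their RPM + 1 was -0.22 ± 0.16 in WT and 0.7 ± 0.23 in KO (mean ± SD, n = 4 each), a difference of 0.92. The groups were apart (exact two-sided permutation p = 0.0286, the smallest possible; 0.0858 after Benjamini-Hochberg adjustment over 6 such ratios, which were chosen after the values were seen). P4ha3, a further catalytic subunit, had 2 reads in all 8 libraries together and was at the floor or below it in each. P4htm, a transmembrane prolyl hydroxylase of the endoplasmic reticulum, had a mean of 4.14 ± 0.95 RPM in WT and 4.3 ± 1.32 RPM in KO (relative log2 fold change -0.09, limma adjusted p = 0.96, n = 4 each).

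Among the lysyl hydroxylases, which modify collagen lysines for cross-linking and glycosylation, Plod1 stood at 40, 32.2, 37.9 and 38.2 RPM in WT 1 to WT 4 and at 48.1, 57, 56 and 50.1 RPM in KO 1 to KO 4. All KO values lay above all WT values, with means of 37.1 ± 3.39 RPM in WT and 52.8 ± 4.35 RPM in KO. The difference missed the threshold across all genes (relative log2 fold change 0.37, SE 0.13; adjusted p = 0.087 in limma, edgeR adjusted p = 0.205, n = 4 each). Plod3 was at 12.6 to 17.8 RPM in WT and 15.8 to 16.2 RPM in KO (0.01, 95% interval -0.31 to 0.34, limma adjusted p = 0.68, n = 4 each). The log2 ratio of Plod1 to Plod3 was 1.3 ± 0.18 in WT and 1.66 ± 0.11 in KO, and the groups were apart (difference 0.36, exact two-sided permutation p = 0.0286, adjusted p = 0.0858 over the 6 ratios, n = 4 each). The pairs were chosen after the values were seen, so the ratios of P4ha1 and Plod1 add no support beyond the values of each gene.

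Plod2 separated the libraries by Xist and not by genotype. WT 1 held 6.77 RPM and KO 4 held 7.42 RPM, whereas WT 2 to WT 4 held 1.85 to 2.27 RPM and KO 1 to KO 3 held 1.31 to 2.68 RPM, from 7 to 54 reads. The group means were 3.22 ± 2.37 RPM in WT and 3.22 ± 2.86 RPM in KO (relative log2 fold change -0.2, 95% interval -1 to 0.6, limma adjusted p = 0.94, n = 4 each). P4htm, Tet1 and Tet2 were also higher in both libraries with Xist than in each of the other 6. For P4htm, WT 1 held 5.36 RPM and KO 4 held 6.04 RPM against 3.08 to 4.6 RPM in the others. Tet1 stood at 2.96 and 3.02 RPM there and at 1.05 to 2.86 RPM in the others. For Tet2 the margin was narrow, with 23.4 RPM in both WT 1 and WT 2. Over all genes tested, 4.72% lay above and 3.68% below the other 6 libraries in both of these, compared with 4 and 0 of the 38 members. The same 2 libraries had 0 reads of the Y-linked demethylase genes Kdm5d and Uty, which had 32 to 49 and 205 to 366 reads in each of the other 6. The labels used here give no sex, and these 2 libraries share whatever else sets them apart, so this is a description.

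**Figure D1:**
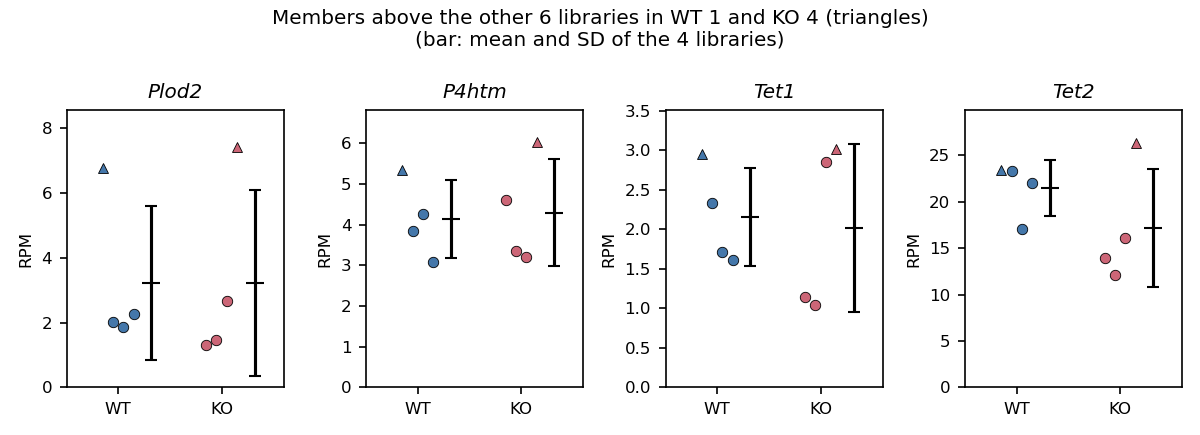
Expression in RPM (vertical axes, starting at 0) of Plod2, P4htm, Tet1 and Tet2 in each WT and KO library, with the mean and SD of each group of 4. Triangles mark WT 1 and KO 4, the libraries with Xist, which lie at 6.77 and 7.42 RPM for Plod2 where the other 6 lie between 1.31 and 2.68 RPM.

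The JmjC histone demethylases, which remove methyl groups from histone lysines, made up the largest group, and none of the 14 tested passed. Kdm4d, the remaining member, had 3 reads in all. Kdm3a, which removes a repressive mark from histone H3, was at 19.6, 19.2, 21.7 and 20.2 RPM in WT 1 to WT 4 and at 29.4, 35.2, 52.5 and 24.7 RPM in KO 1 to KO 4. All KO libraries were above all WT libraries, KO 3 by the most and KO 4 by the least. The means were 20.2 ± 1.08 and 35.5 ± 12.1 RPM (relative log2 fold change 0.6, SE 0.19; adjusted p = 0.0799 in limma, edgeR adjusted p = 0.109, n = 4 each). Over 21 alternatives the relative log2 fold change was 0.44 to 0.76 and the adjusted p 0.0166 to 0.365, under the threshold in 4 of them. DESeq2 gave 0.0497, a model term for Xist 0.0411, the 6 libraries without Xist 0.0166, and leaving out KO 4 gave 0.0224. On the other side, the adjusted p was 0.203 without KO 3, where the relative log2 fold change was lowest, 0.202 without WT 3, 0.122 with TMM factors (trimmed mean of M values) and 0.359 with no filter on low values. With TMM factors WT 3 came to 24.2 and KO 4 to 24.1, so that the groups touched.

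The closest relatives of Kdm3a had smaller differences. Kdm3b was at 66.4 to 88.3 RPM in WT and 77.4 to 97.8 RPM in KO (relative log2 fold change 0.08, 95% interval -0.21 to 0.37, limma adjusted p = 0.462, n = 4 each). Jmjd1c, the third of these proteins, was at 25.1 to 34.6 RPM in WT and 22 to 31.8 RPM in KO (-0.23, 95% interval -0.59 to 0.12, limma adjusted p = 0.785, n = 4 each). The log2 ratio of Kdm3a to Kdm3b overlapped between the groups, with KO 4 at -1.94 inside the WT range (difference 0.52, exact permutation p = 0.114, adjusted 0.171, n = 4 each). The ratio to Jmjd1c overlapped in the same way, with KO 4 at -0.34 (difference 0.84, exact permutation p = 0.0571, adjusted 0.114, n = 4 each).

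Of the Kdm4 proteins, which act on trimethylated lysines of histone H3, Kdm4c was at 15.4, 14.9, 12.5 and 18.3 RPM in WT 1 to WT 4 and at 21.9, 15.7, 20.5 and 24.4 RPM in KO 1 to KO 4. Only KO 2 fell inside the WT range (relative log2 fold change 0.28, SE 0.17; adjusted p = 0.261 in limma, n = 4 each). Kdm4a was at 67.5, 70.8, 55.6 and 71.1 RPM in WT and at 70.6, 67.9, 91.2 and 83.5 RPM in KO, and its groups overlapped (0.11, limma adjusted p = 0.421, n = 4 each). Kdm4b, another member known to be hypoxia-induced, had means of 34.4 ± 4.86 and 36.3 ± 5.45 RPM (-0.05, limma adjusted p = 0.849, n = 4 each).

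Several demethylases had lower means in KO, without a call. Kdm7a, a PHD finger demethylase, was at 27.8, 31.2, 23.2 and 33.2 RPM in WT 1 to WT 4 and at 15.6, 32.5, 25.2 and 19.5 RPM in KO 1 to KO 4 (relative log2 fold change -0.47, SE 0.2; adjusted p = 0.403 in limma, n = 4 each). Kdm6b, which removes the mark of the Polycomb complex, was at 27.9, 27.5, 25.4 and 26.7 RPM in WT and at 19.9, 19.5, 29.6 and 21.7 RPM in KO, where KO 3 lay above all WT libraries (-0.38, limma adjusted p = 0.427, n = 4 each). With TMM factors KO 3 came to 25.9 and lay below all WT libraries (26.8 to 29.2), and the limma adjusted p was then 0.222. Phf8, an X-linked demethylase, was at 2.54, 1.17, 1.57 and 1.46 RPM in WT and at 0.986, 0.628, 1.25 and 1.37 RPM in KO (-0.5, SE 0.23; adjusted p = 0.425 in limma, n = 4 each). Its values rest on few reads, and WT 1, a library with Xist, was the highest. The remaining demethylases, Kdm2a, Kdm2b, Kdm5a, Kdm5b and Phf2, had relative log2 fold changes between -0.22 and 0.15 (limma adjusted p at least 0.424).

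The small JmjC proteins act mainly as hydroxylases of other proteins. Jmjd6, which hydroxylates lysines of splicing factors, was at 59.1, 63.1, 69.7 and 70 RPM in WT 1 to WT 4 and at 78.2, 79.2, 86.6 and 80.6 RPM in KO 1 to KO 4. All KO values lay above all WT values on the deposited scale, but with TMM factors WT 3 (77.9) lay within the KO range. The relative log2 fold change was 0.18 (SE 0.12; adjusted p = 0.242 in limma, n = 4 each). Jmjd4, which hydroxylates a translation termination factor, was at 24.7, 38.7, 32.9 and 36.6 RPM in WT and at 39.6, 35.4, 38 and 46.8 RPM in KO (0.14, limma adjusted p = 0.411, n = 4 each). Its groups overlapped, with WT 1 the lowest library. Jmjd8, a protein of the endoplasmic reticulum, and Kdm8 had relative log2 fold changes of -0.18 and -0.23 (limma adjusted p of 0.87 and 0.765). Jmjd6 overlaps Mettl23 on the other strand, and whether reads were counted by strand is not stated.

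**Figure D2:**
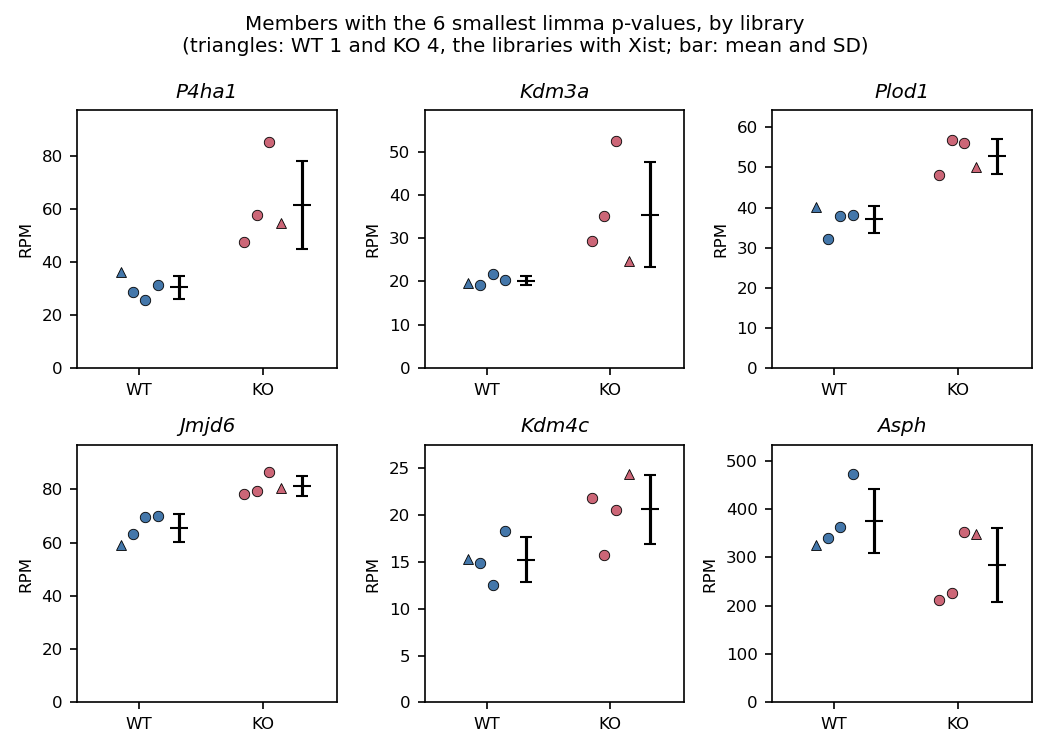
Expression in RPM (vertical axes, starting at 0) of the 6 members with the smallest limma p-values in each WT and KO library; bars give the mean and SD of 4 libraries and triangles mark WT 1 and KO 4. The KO libraries lie above all WT libraries for P4ha1, Kdm3a, Plod1 and Jmjd6, and the groups overlap for Kdm4c and Asph.

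The TET enzymes oxidise methylated cytosine in DNA, and none of the 3 passed. Tet2 was at 23.4, 23.4, 17.1 and 22 RPM in WT 1 to WT 4 and at 14, 12.1, 16.1 and 26.4 RPM in KO 1 to KO 4. KO 1 to KO 3 lay below all WT libraries, and KO 4 above them (relative log2 fold change -0.48, SE 0.21; adjusted p = 0.398 in limma, n = 4 each). Tet3 had means of 37.4 ± 7.15 RPM in WT and 39.8 ± 8.37 RPM in KO (-0.05, limma adjusted p = 0.856, n = 4 each), and Tet1 of 2.16 ± 0.62 and 2.02 ± 1.06 RPM (-0.24, limma adjusted p = 0.861, n = 4 each). The log2 ratio of Tet2 to Tet3 had a difference of -0.44, with overlap (exact permutation p = 0.343, n = 4 each).

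The AlkB family demethylates or hydroxylates RNA, DNA and proteins, and its 6 tested members lay close together, with relative log2 fold changes between -0.08 and 0.14 and no call. Fto, which removes methyl groups from adenosine in RNA, was at 104, 86.3, 83.8 and 78.7 RPM in WT 1 to WT 4 and at 116, 119, 98.3 and 86.7 RPM in KO 1 to KO 4. Its groups overlapped (0.12, SE 0.14; adjusted p = 0.406 in limma, n = 4 each). Alkbh5, the other eraser of that mark, was at 371 to 477 RPM in WT and 408 to 513 RPM in KO (-0.04, 95% interval -0.3 to 0.23, limma adjusted p = 0.765, n = 4 each). Alkbh1 and Alkbh8, which modify transfer RNA, Alkbh3, which repairs alkylated nucleic acid, and Alkbh6 had limma adjusted p between 0.473 and 0.913. Alkbh2, Alkbh4 and Alkbh7 were too low to test: Alkbh4 reached 1.07 RPM in 1 library, and Alkbh2 and the mitochondrial Alkbh7 had at most 3 and 4 reads in a library.

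Asph encodes aspartate beta-hydroxylase, and the same gene also gives junctin and junctate, calcium-handling proteins of the sarcoplasmic reticulum without the catalytic domain. A single amplicon does not separate these transcripts, and which of them it reads is not known here. Asph was at 326, 340, 362 and 471 RPM in WT 1 to WT 4 and at 211, 226, 351 and 349 RPM in KO 1 to KO 4. KO 1 and KO 2 lay below all WT libraries, while KO 3 and KO 4 fell inside the WT range (relative log2 fold change -0.55, SE 0.18; adjusted p = 0.263 in limma, n = 4 each). With TMM factors all KO libraries lay below all WT libraries (215.8 to 339.5 against 340.7 to 472), and the adjusted p was 0.13. Ogfod3 was at 11, 17.4, 14.1 and 13.9 RPM in WT and at 9.2, 7.96, 9.46 and 16.1 RPM in KO (-0.53, SE 0.21; adjusted p = 0.345 in limma, n = 4 each). Its groups overlapped through KO 4, and the 6 libraries without Xist gave an adjusted p of 0.0471. Ogfod1, which hydroxylates a proline of a ribosomal protein, and Ogfod2 had relative log2 fold changes of 0.04 and -0.07.

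Phyh, the peroxisomal enzyme that starts the breakdown of phytanic acid, was at 246, 532, 369 and 525 RPM in WT 1 to WT 4 and at 441, 418, 580 and 420 RPM in KO 1 to KO 4. The WT libraries spread over a wider range than the KO libraries, and the groups overlapped (relative log2 fold change 0.08, 95% interval -0.36 to 0.52, limma adjusted p = 0.645, n = 4 each). The sign turned negative without WT 1 (-0.15). Bbox1, which makes carnitine mainly in liver and kidney, had 1 read in each of KO 1, KO 2 and KO 3 and 0 reads in the other libraries, all below the floor.

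**Figure D3:**
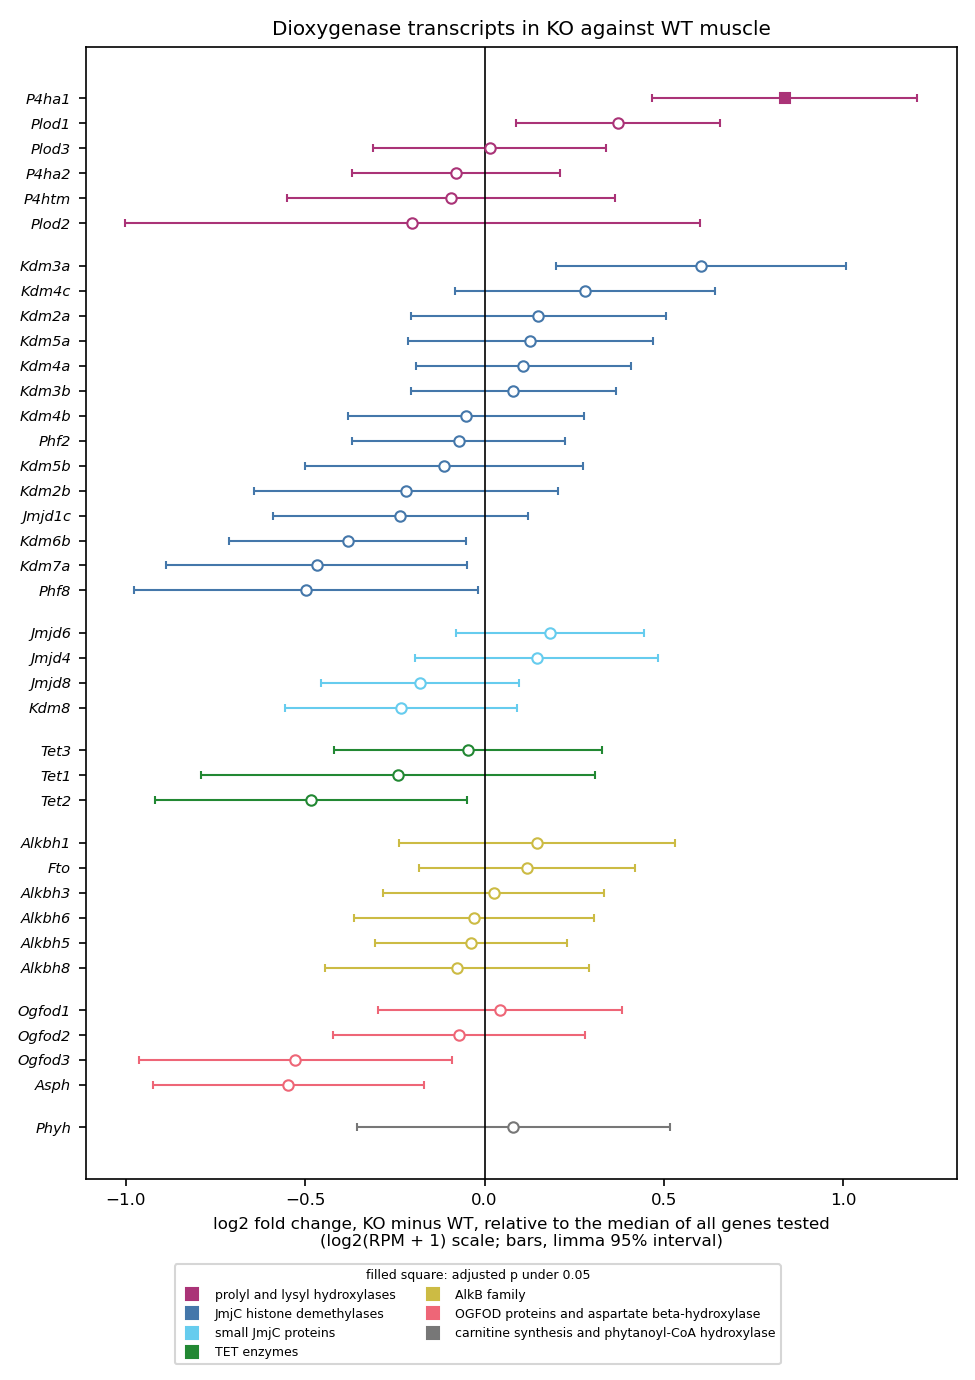
Relative log2 fold change (horizontal axis, KO minus WT, with 0 at the median of all genes tested) of the 38 members tested, grouped by role, with limma 95% intervals shifted by the same median. P4ha1 at 0.84 is the only filled square, the mark for a limma adjusted p under 0.05.

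Across the 38 members tested, 1 was higher in limma (2.63%) and 0 were lower, against 0.523% and 0.28% of all 11087 genes. At an unadjusted p under 0.05 there were 5 higher and 1 lower members in limma, 13.2% and 2.63%, against 13.1% and 3.07% of all genes. These shares are close to the background. They rest on the difference before the shift. Relative to the median gene, the unadjusted 95% intervals lay above 0 for P4ha1, Kdm3a and Plod1, and included 0 for Jmjd6 and Kdm4c. Below 0 lay those of Asph, Ogfod3, Tet2, Kdm7a, Kdm6b and Phf8. The share of all genes with such intervals was not counted. The edgeR test called 1 member (background 0.334% higher and 0.496% lower) and DESeq2 called 2 (0.749% and 1.42%). Without overlap on the deposited scale, 4 members were higher (10.5%) and 0 lower, against 7.5% and 1.61% of all genes. With TMM factors these counts were 2 higher (P4ha1 and Plod1) and 2 lower (Kdm6b and Asph), against 3.63% and 3.59%. A model term for Xist called 2 members, both higher (background 1.49% higher and 0.631% lower), and the 6 libraries without Xist called 2 higher and 1 lower (2.32% and 1.32%). In those 6 libraries 7 members were higher without overlap and 3 lower (18.4% and 7.89%), against 18.1% and 6.33% of all genes.

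The median relative log2 fold change of the members was -0.05, with 16 above and 22 below the median of all genes. In the hypoxia-induced subset of 7, which was drawn up with earlier results of these data known, the median was 0.28 and 4 of 7 lay above the median of all genes. These 4, P4ha1, Kdm3a, Plod1 and Kdm4c, were higher at an unadjusted p under 0.05 in limma, as were 13.1% of all genes. Kdm4b, P4ha2 and Plod2 had values of -0.05, -0.08 and -0.2. The other member higher at that level was Jmjd6, and the 1 lower was Asph. These p-values belong to the difference before the shift, and the relative 95% interval of Kdm4c was -0.08 to 0.64. Because results were known when the subset was drawn up, its median and its share are a description and not a test.

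**Figure D4:**
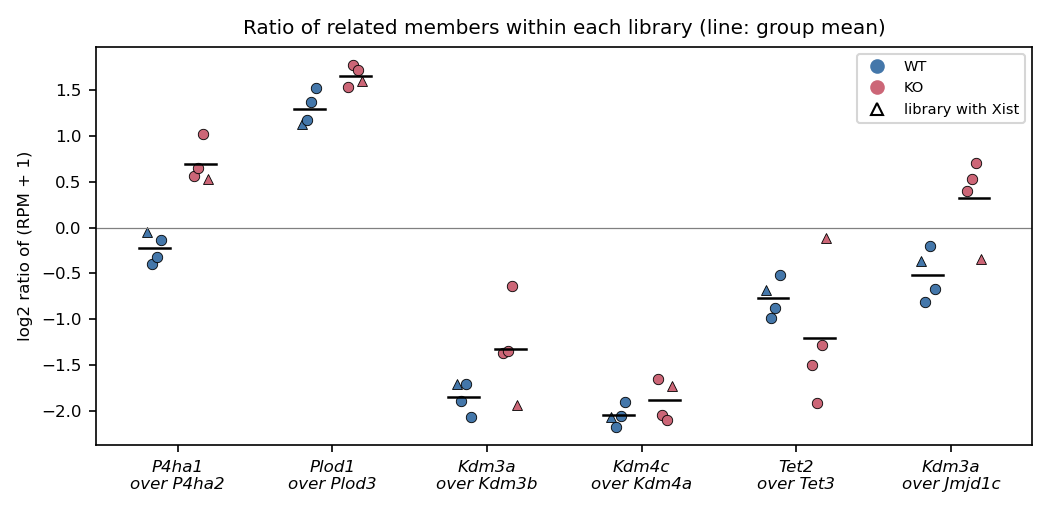
Log2 ratio of RPM + 1 between related members within each library (vertical axis), for 6 pairs, in WT and KO, with group means as lines and triangles for WT 1 and KO 4. The groups are apart for P4ha1 over P4ha2 and for Plod1 over Plod3 and overlap for the other 4 pairs; the height of a ratio also reflects how well each amplicon is amplified.

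The HIF hydroxylases are the nearest relatives outside the list. Egln3, itself induced by HIF, was at 21.3, 8.35, 13.4 and 18.3 RPM in WT 1 to WT 4 and at 74.9, 75.2, 87.3 and 79.5 RPM in KO 1 to KO 4 (relative log2 fold change 2.24, limma adjusted p = 2.9e-05, n = 4 each). Egln1 (0.25, limma adjusted p = 0.193), Egln2 and Hif1an did not pass. Other 2-oxoglutarate oxygenases outside the list had 11 tested genes and no call, with a median of 0.01. Of these, only Hr had an unadjusted p under 0.05. It was at 109, 110, 138 and 118 RPM in WT and at 69.2, 64.9, 61.4 and 134 RPM in KO (-0.72, limma adjusted p = 0.172, n = 4 each).

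Enzymes that make or use 2-oxoglutarate and succinate had 21 tested members, of which 0 were higher and 1, Sdhc itself, was lower in limma. The median was -0.14. Dlst, a subunit of the 2-oxoglutarate dehydrogenase complex (0.19, limma adjusted p = 0.249), and Gpt2, a mitochondrial alanine transaminase (-0.42, limma adjusted p = 0.26), did not pass in limma. All KO libraries lay below all WT libraries for Gpt2, and DESeq2 called it lower (adjusted p = 0.044), while edgeR did not (0.109). Genes of collagen chains and collagen maturation, the substrates and partners of P4ha1 and Plod1, had 18 tested members and no call, with 5 of 18 higher at an unadjusted p under 0.05 (13.1% of all genes) and a median of 0.09. Col4a1, a basement membrane collagen, was at 139, 231, 179 and 215 RPM in WT and at 256, 239, 388 and 350 RPM in KO (0.56, limma adjusted p = 0.0799, n = 4 each), and Col3a1 did not pass either (0.26, adjusted p = 0.234). P4hb, the partner subunit of P4ha1, overlapped between the groups (0.11, limma adjusted p = 0.488). Neither the 5 tested genes of carnitine use nor the 17 methyltransferases, which add the marks that several members remove, held a call. Their medians were both 0.04, with Slc25a20 (0.19, limma adjusted p = 0.309) and Kmt2a (0.24, adjusted p = 0.197) having the smallest p in each.

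In whole muscle, a change in the number of cells of a type and a change in RNA per cell cannot be told apart. The 7 muscle fibre markers all had relative log2 fold changes below 0, from -0.65 to -0.18 with a median of -0.4, though none passed in limma and each overlapped between the groups. Their sum was lowest in KO 3, the library with the highest P4ha1 and Kdm3a. The marker sums given here are on the deposited scale. KO 3 had the largest TMM factor, 1.144 against 0.8948 to 1.047 in the other libraries, so its values fall most when these factors are applied. It also had the smallest share of reads in the 50 highest genes (29.5%, with up to 41.7% in the others). Collagen-modifying members are expressed by fibroblasts and other cells as well as by fibres. All 7 fibroblast markers in the table were read in every library. Their summed level overlapped, at 1046 to 1312 RPM in WT and 956 to 1566 RPM in KO. KO 3 was the highest on the deposited scale, and KO 4 was the highest with TMM factors. All 8 endothelial markers were also read in every library. Their sum was 335 to 499 RPM in WT and 503 to 684 RPM in KO. On the deposited scale all KO libraries lay above all WT libraries, KO 3 the highest, with KO 4 (503.3) just above WT 4 (498.8). Division by the TMM factors, 1.027 for KO 4 and 0.9983 for WT 4, puts KO 4 below WT 4, so the groups then overlap. The 6 macrophage and leukocyte markers, read in every library, summed to 12.7 to 21 RPM in WT and 24.8 to 31.2 RPM in KO. Of these 6, 4 lay above the median of all genes and 2 below it (median 0.19). Cd68, which made up 30.5% of the sum, was the 1 that rose in limma (adjusted p = 0.0192). No endothelial or fibroblast marker passed. The adipocyte list, of which Fabp4 (limma adjusted p = 0.0404) made up 95%, was at 171 to 240 RPM in WT and 295 to 354 RPM in KO, with Plin1 and Lep at 0 in some libraries. The tendon markers overlapped, at 139 to 230 RPM in WT and 75.4 to 206 RPM in KO, and one of the 6, Scx, was lower in limma (adjusted p = 0.0164). The sums of the satellite cell and smooth muscle list (96.3% Acta2) and of the blood and nerve list overlapped as well. The part of these cells in the differences of P4ha1, Kdm3a and Plod1 was not tested.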

How the data were processed

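The authors deposited 1 table of RPM (reads per 1000000 reads of the library), with 1 amplicon per gene. Per the submitters' processing notes, Transcriptome Analysis Console was used; aligner, build, filters and use of strand: not given in the sources used here. Every value was a whole multiple of 1 read (100% within 0.05 reads), which gave the read totals. Amplicon reads carry no molecular identifiers, so floors cover counting error only. The labels do not state that each library is a separate animal, and the spread behind each p-value may be technical. Every pair of replicates differed by more than counting noise (reduced chi-square of 8.72 or above).

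The 11087 genes that reached 1 RPM in 4 or more libraries were transformed to log2(RPM + 1) and fitted by genotype in limma 3.58.1 (R 4.3.3; moderated variances with a trend; two-sided; threshold 0.05 after Benjamini-Hochberg adjustment over all genes). Recovered reads were fitted with edgeR 4.0.16 and DESeq2 1.42.0. Alternatives were pseudocounts, filters, TMM and quantile scaling, the replicate number as a block, a term for Xist above 10 RPM, the 6 libraries below it, and omission of each library; omission of WT 3 with KO 3 was added after the data were seen. The limma and edgeR fits, but not the other fits, were also run on simulated counts with known changes. Each recovered 31.3% of the 1.5-fold changes, while limma recovered 89.6% and edgeR 94% of the 2-fold changes. Members that did not pass may therefore still differ by 1.5-fold. The relative 95% intervals of 14 members reached a change of that size. Members and lists were chosen with earlier results of these data known. Per-library values are given for members that passed, for the 12 smallest p, for the smallest p in each role and for Phf8; Kdm6b, Plod2, P4htm, Tet1, P4ha2 and the paralogue pairs were added after their values were seen. From the other lists, genes that passed and up to 2 with the smallest p are named; Egln2, Hif1an and P4hb were added likewise. Positions are from GENCODE M21 on GRCm38 by symbol, which matched all 44 members; 24 lie across an annotated gene of the opposite strand and 13 across one of their own strand, whose reads may be included.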

Additional observations from a re-analysis of the deposited data

Results flagged for a closer look

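In 76 groups of 4 libraries (38 members, each in WT and KO), 2 held a library far from the other 3, where chance flags about 1 in 20 groups, or 3.8. Plod2 in WT 1 was at 6.77 RPM, against 1.85 to 2.27 RPM in WT 2 to WT 4; KO 4, the other library with Xist, was at 7.42 RPM. Phyh in KO 3 was at 580 RPM, where KO 1, KO 2 and KO 4 held 418 to 441 RPM.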

How the results depend on the processing

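The count of members called was 1 in the fit reported and in pseudocounts of 0.5 and 5, a minimum of 5 RPM, TMM factors, quantile scaling, edgeR with and without TMM, and the replicate block. It was 0 with no filter on low values, where 23930 genes enter the adjustment, and 0 without both WT 3 and KO 3; it was 2 in DESeq2, 2 with a term for Xist and 3 in the 6 libraries without Xist (P4ha1, Kdm3a and Ogfod3). Leaving out 1 library gave 0 to 2. The genes called among all 11087 moved as well, from 16 without WT 3 to 270 without KO 4, against 89 with all libraries. The causes were not tested. The count of members without overlap was 4, and 10 in the 6 libraries without Xist (7 higher, 18.4%, and 3 lower, 7.89%, against 18.1% and 6.33% of all genes). Leaving out 1 library gave 4 to 7, the highest without KO 4. The share of all genes without overlap was not counted for these omissions, and 3 libraries against 4 separate more easily, so this range says nothing particular about the members. Sdhc stood at 2.6% to 4.28% of the WT mean when 1 library was left out (exact permutation p = 0.0571 each, the smallest 3 against 4 can give). For 15 members with values in every library, 302 of 314 refits kept the direction and the side of the threshold. Only P4ha1 of these was called in the fit reported, so for the others this mostly means staying uncalled. Kdm3a gained a call in 4 of 21 refits, and P4ha1 lost its call in 4 of 21. P4ha1 kept its direction in all 21, at 0.66 to 0.96. The sign turned for Jmjd4 (-0.062) and Phyh (-0.11) in the 6 libraries without Xist and for Phyh without WT 1 (range -0.15 to 0.21 over single omissions). The replicate numbers are not stated to pair libraries, and same-numbered libraries did not deviate together (correlations of -0.12 to 0.08 over genes); the replicate block gave P4ha1 an adjusted p of 0.0249 and changed the side of the threshold for none of the 15. Members under about 5 RPM rest on few reads, and the added 1 RPM shrinks their fold changes: for Phf8 the difference before the shift was -0.37 in limma and -0.77 in edgeR.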
